A study of Mus musculus with 2 samples.

Results

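The genes described here encode the proteins of the mitochondrial ribosome, the particle that translates the few messages of the mitochondrial genome. They were chosen by symbol alone, Mrpl or Mrps followed by digits and at most 1 letter, with pseudogenes left out, and no measured value entered the choice. The RefSeq gene table held 78 such genes and all 78 had a probe, out of 20284 genes named on the array. Of these, 77 were tested, 48 Mrpl genes of the large subunit and 29 Mrps genes of the small subunit. The remaining one, Mrpl21, gave processed signals of 8.23 and 9.19 in WT and 8.23 and 8.58 in overexpression and was not well above background in either channel of either array.

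The study set mouse embryonic stem cells (ESCs) labelled WT against ESCs labelled HDAC6 overexpression; HDAC6 is a mainly cytoplasmic deacetylase of tubulin and other proteins. Both were B6C3F1 ESCs at passage 26, grown with LIF and serum on mitomycin C-treated mouse embryonic fibroblasts, the feeder cells that support them. There were 2 arrays, named as biological replicates, and each carried WT RNA in Cy3 and overexpression RNA in Cy5, so a dye effect and the labelled difference cannot be told apart. The labels number the replicates but do not say whether the RNA came from separate cultures, and both arrays carry the same WT and overexpression numbers in their names, so SDs and p-values measure only the spread between these arrays, which may be technical. The labels did not name the overexpression construct, its promoter or the number of clones.

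Mitochondrial ribosomal proteins are made from nuclear genes, translated in the cytosol and imported. The large subunit carries the peptidyl transferase centre and the exit tunnel, and the small subunit decodes the messenger RNA. Some of the proteins are homologues of bacterial ribosomal proteins and others exist only in mitochondria. The products of the particle are core subunits of the respiratory chain and the ATP synthase, which ESCs keep although they draw much of their energy from glycolysis.

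Unless another scaling is named, the expression values below are Agilent's processed signal, a background-subtracted and dye-normalised intensity, or log2 ratios of overexpression over WT made from it. The authors' deposited table holds the same ratios with the opposite sign. A value after ± is the SD over the arrays (n = 2), and a gene was called where limma's adjusted p over all 16055 tested genes was under 0.05. Both arrays carried 62976 spots, of which 269 and 313 were outliers and 0 were saturated, and 68.1% to 68.8% of the probes were well above background. Hdac6 gave 16389 and 17806 in WT and 18275 and 17344 in overexpression, a log2 ratio of 0.06 ± 0.14 (adjusted p = 0.64), so the target gene did not separate the channels and directions here refer to the channels as labelled. Under median centring of the raw signals its ratio was 0.52 (limma adjusted p = 0.00096). The summed signal of 10 feeder fibroblast markers lay between 68710 and 77770 in WT and between 164709 and 216291 in overexpression, and all 10 rose. That of 8 primitive endoderm markers lay between 4199 and 4729 in WT and between 67380 and 68643 in overexpression, and all 8 rose. The 9 ESC markers were all well above background in both channels, summed to 194798 to 209117 in WT and 172008 to 187461 in overexpression, and 2 rose and 3 fell. In bulk RNA, a change in the makeup of the culture and a change in RNA per cell cannot be told apart, and the part of these marker shifts in the results below was not tested.

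On the processed ratios the mitochondrial ribosomal protein genes moved little, and the largest block of movement lay on a single chromosome. Median centring of the raw signals changed this: 41 rose and 8 fell, beside 30.4% and 30.0% of all genes. The members' median absolute log2 ratio was then 0.34, beside 0.31 for all genes. On the processed ratios, 22 of the 77 fell and 6 rose, and 49 did not pass the test. As a share, 36.4% were called, beside 51.1% of all tested genes. In the downward direction it was 28.6% beside 29.9%, and in the upward direction 7.79% beside 21.2%. The share that fell was therefore near that of all genes. Their median log2 ratio was -0.12 beside -0.062 for all genes, and single members ran from -0.83 to 0.52. No member passed 2-fold on either array, beside 3.03% of all genes at least 2-fold higher and 4.39% at least 2-fold lower on both. Tested against a 1.5-fold change with limma's treat, 0 members were called, beside 9.96% of all genes, 4.12% higher and 5.84% lower. In that test 0 members were higher and 2 lower at an unadjusted p under 0.05, both of the 2 on chromosome 11.

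**Figure D1:**
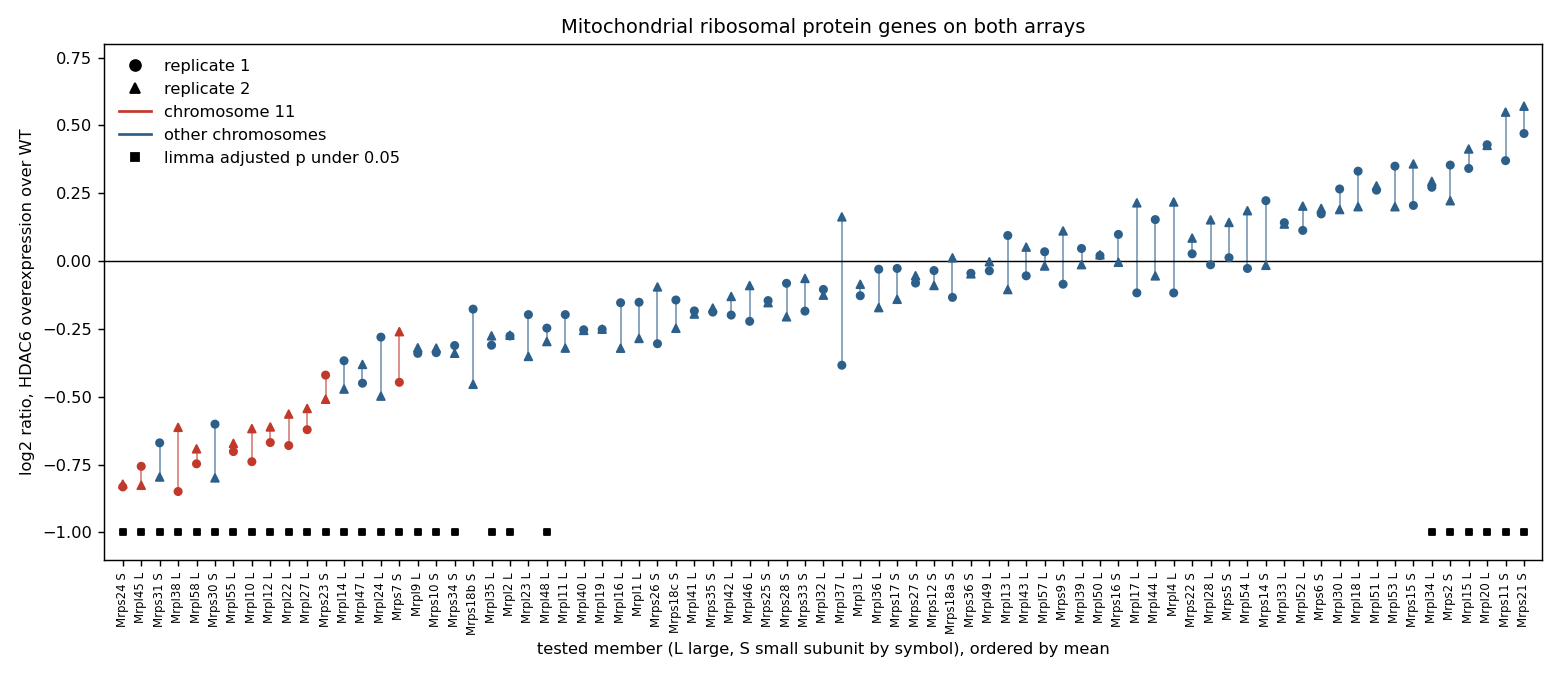
The log2 ratio of overexpression over WT (y axis) is plotted for each of the 77 tested genes (x axis, ordered by mean), with a circle for replicate 1 and a triangle for replicate 2 and a black square under each gene called by limma. The genes on chromosome 11, in red, fill most of the left end, and 10 of the 12 lowest are among them.

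The arrays gave the same sign for 63 of the 77 genes, and none of the 14 others was called. The same sign was found in 85.8% of all tested genes. For 53 of the 77, the WT and overexpression signals of both arrays did not overlap, beside 72.8% of all tested genes, and the 53 included all 28 called genes. Mrpl37, a mitochondria-specific large subunit protein, had the largest gap between arrays, with log2 ratios of -0.38 and 0.16, and its signals overlapped; it is named here after its values were seen. A second probe was present for 21 genes, and it had the same sign as the brighter probe in 16 of them. In the other 5 the probes differed by under 0.50, and the median difference over the 21 was 0.17.

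All 11 tested members on chromosome 11 fell. They were 8 large subunit genes, Mrpl10, Mrpl12, Mrpl22, Mrpl27, Mrpl38, Mrpl45, Mrpl55 and Mrpl58, and 3 small subunit genes, Mrps7, Mrps23 and Mrps24. Their median log2 ratio was -0.68, against -0.065 for the 66 members of the other chromosomes. The other tested genes of chromosome 11 were low as well: 66.7% of 1326 fell and 9.5% rose, with a median of -0.51. Among the 66 members elsewhere 11 fell and 6 rose, where 26.6% and 22.3% of the other genes of those chromosomes did. No test was made of the gap between the groups, because genes that share a chromosome are not replicates.

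The upstream sequences of 3 of these genes are shown because they carry letters of factors known to act on nuclear genes for mitochondrial proteins. Each is the 250 bases before the RefSeq start in GRCm38.p6, read 5′ to 3′ on the gene's strand. Capitals mark the letters of NRF1 (GCGCA, any base, GCGC, or the opposite strand) in Mrpl45 (chr11:97315466-97315715, plus strand) and Mrpl12 (chr11:120484387-120484636, plus strand). In Mrpl58 (chr11:115403502-115403751, plus strand) they mark CCGGAAG, the letters of the ETS family, to which GABP belongs.
Mrpl45: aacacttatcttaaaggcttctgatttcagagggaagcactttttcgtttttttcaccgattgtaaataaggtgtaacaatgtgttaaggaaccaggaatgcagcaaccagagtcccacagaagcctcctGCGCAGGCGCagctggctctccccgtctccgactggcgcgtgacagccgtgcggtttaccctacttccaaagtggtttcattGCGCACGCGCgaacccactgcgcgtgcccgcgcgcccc
Mrpl58: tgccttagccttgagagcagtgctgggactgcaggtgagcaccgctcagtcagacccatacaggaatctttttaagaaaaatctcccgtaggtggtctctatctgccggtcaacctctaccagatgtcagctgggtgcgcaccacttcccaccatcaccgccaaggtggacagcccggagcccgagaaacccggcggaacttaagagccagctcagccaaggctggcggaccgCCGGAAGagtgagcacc
Mrpl12: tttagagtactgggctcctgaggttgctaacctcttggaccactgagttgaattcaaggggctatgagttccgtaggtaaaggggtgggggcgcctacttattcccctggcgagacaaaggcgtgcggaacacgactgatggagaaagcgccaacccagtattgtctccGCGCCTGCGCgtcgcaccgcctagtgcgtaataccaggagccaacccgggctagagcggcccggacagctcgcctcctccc
Counted from the start, with negative positions upstream, the capitals begin at -120 and -38 in Mrpl45, at -81 in Mrpl12 and at -17 in Mrpl58. Further matches that reach past the start, in Mrpl45 and Mrpl58, are not shown. A match is a description of the letters and not of a bound site.

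In the large subunit, Mrpl45, a mitochondria-specific protein near the exit of the tunnel, gave 23693 and 24854 in WT and 14027 and 14019 in overexpression, a log2 ratio of -0.79 ± 0.05 (adjusted p = 0.0015). Mrpl38, of the central protuberance, gave 21017 and 19886 in WT and 11667 and 13005 in overexpression (-0.73 ± 0.17, adjusted p = 0.0029). Mrpl58, also called Ict1, a peptidyl-tRNA hydrolase built into the large subunit, gave 31226 and 32550 in WT and 18606 and 20150 in overexpression (-0.72 ± 0.04, adjusted p = 0.0020). In all 3, both overexpression signals lay below both WT signals. Mrpl55, another mitochondria-specific protein, gave 22567 and 23625 in WT and 13874 and 14831 in overexpression (-0.69 ± 0.02, adjusted p = 0.0023). Mrpl10 and Mrpl12 form the stalk that receives the translation factors. Mrpl10 gave 15739 and 16345 in WT and 9429 and 10654 in overexpression (-0.68 ± 0.09, adjusted p = 0.0027). Mrpl12 gave 31515 and 32507 in WT and 19827 and 21280 in overexpression (-0.64 ± 0.04, adjusted p = 0.0030). The channels did not overlap for either stalk gene, but Mrpl12 turned to 0.12 under median centring (limma adjusted p = 0.27) while Mrpl10 stayed at -0.42 and was called.

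Mrpl22, a homologue of a bacterial protein that lines the exit tunnel, gave 21348 and 22268 in WT and 13327 and 15065 in overexpression (-0.62 ± 0.08, adjusted p = 0.0036). Mrpl27, whose bacterial homologue reaches the peptidyl transferase centre, gave 16973 and 18023 in WT and 11034 and 12368 in overexpression (-0.58 ± 0.06, adjusted p = 0.0042). By the brightest probe these were the smallest decreases among the 8 large subunit genes of the chromosome, which all lay between -0.79 and -0.58. The second probes of Mrpl22 and Mrpl27 read -0.39 and -0.77, and that of Mrpl10 -0.71, so this order depends on the probe. By the brightest probe the 3 small subunit genes were spread wider. The second probes of Mrps23 and Mrps7 read -0.78 and -0.45. Mrps24, of the messenger RNA entry side, gave 17513 and 19061 in WT and 9837 and 10782 in overexpression (-0.83 ± 0.01, adjusted p = 0.0013). It was the lowest of all 77. Mrps23, a mitochondria-specific protein, gave 16660 and 19125 in WT and 12451 and 13438 in overexpression (-0.46 ± 0.06, adjusted p = 0.0092). Mrps7, of the head of the small subunit, gave 9835 and 9054 in WT and 7216 and 7560 in overexpression (-0.35 ± 0.13, adjusted p = 0.029). In Mrps7 too, neither overexpression signal reached the lower WT signal, though its decrease was the smallest on the chromosome, and it was not called with each array centred on its median gene (-0.29, limma adjusted p = 0.052).

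**Figure D2:**
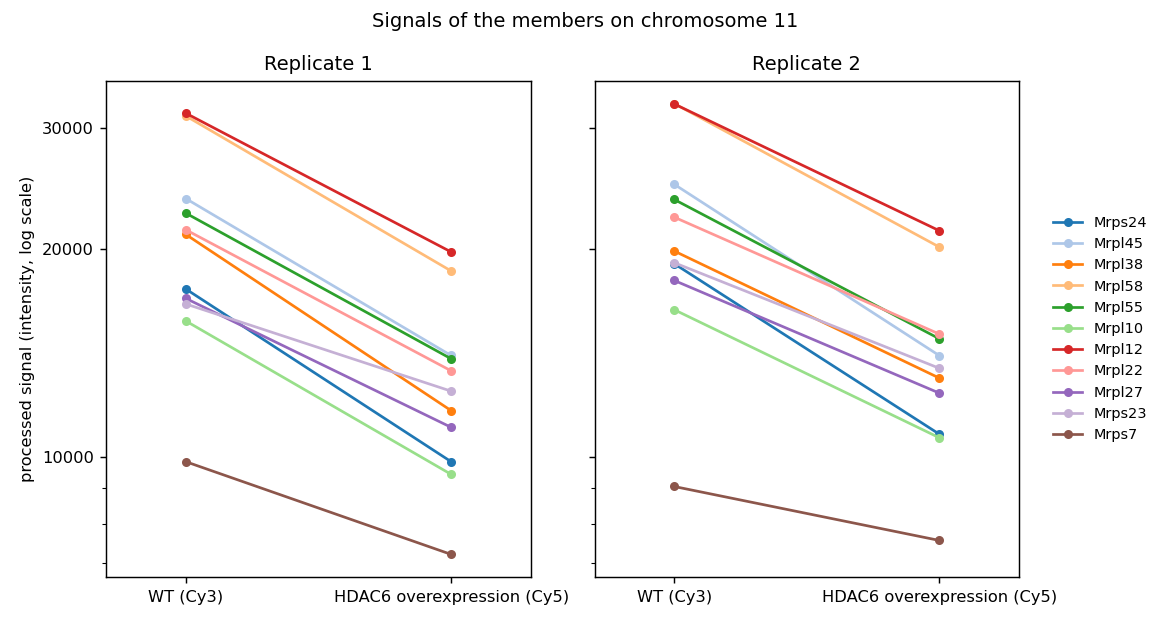
Processed signals (y axis, log scale) of the 11 members on chromosome 11 are joined from WT (Cy3) to overexpression (Cy5), with replicate 1 on the left and replicate 2 on the right. Every line falls on both arrays, most steeply for Mrps24 at -0.83 and least for Mrps7 at -0.35.

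Within chromosome 11 the members did not stand outside the range of the other genes. Their percentiles among the other tested genes of the chromosome ran from 25.3 to 63.2. On the processed ratios 9 of the 11 lay below those genes' median. Among all tested genes the members ran from the 8.94th to the 26.1st percentile. With median centring the members' median was -0.25, above the -0.36 of the other genes of the chromosome. On which side of those genes the members' median lay thus depended on the scaling. Of the 22 nearest tested neighbours, 1 on each side of each member, 17 fell, and for 9 of the 11 members both neighbours had ratios below 0. The median over the 11 members of the neighbours' mean was -0.54, against 0.00078 for the 66 members elsewhere. Mrps24 lay between Ankrd36 (-0.69) and Urgcp (-0.57), and Mrpl58 between Cdr2l (-0.83) and Atp5h (-0.41), and these 4 neighbours fell. Mrpl45 was an exception: Npepps beside it fell (-0.62, limma adjusted p = 0.0031), while Gpr179 on the other side rose (0.81, limma adjusted p = 0.0022). Beside Mrpl38, Fbf1 fell (-0.55) and Trim65 had a ratio of 0.09 (adjusted p = 0.52).

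**Figure D3:**
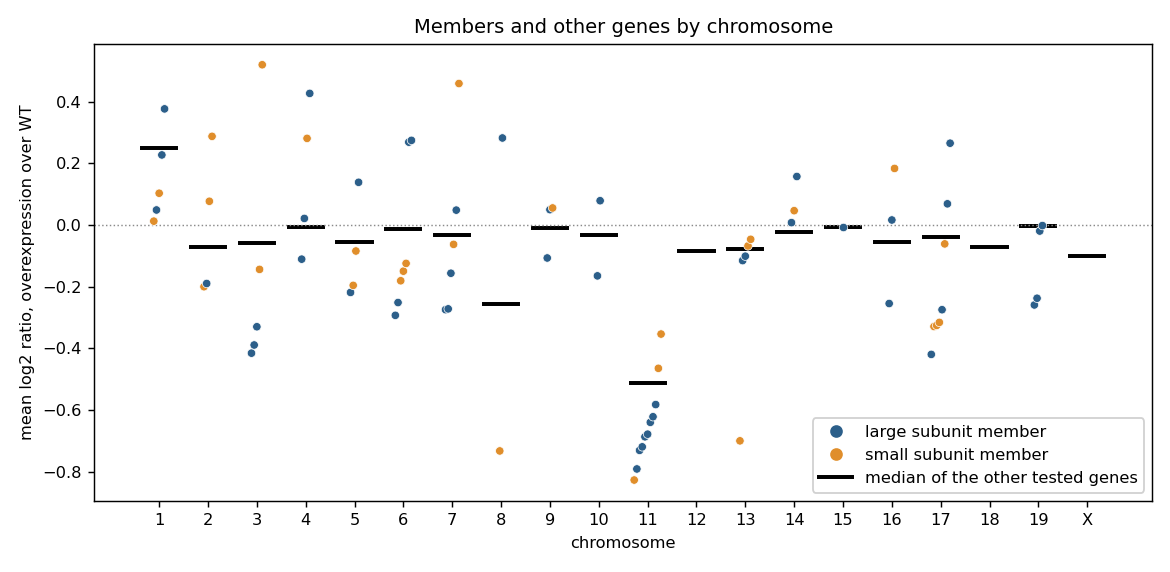
Mean log2 ratios (y axis) of the tested members are plotted by chromosome (x axis), large subunit in blue and small subunit in orange, with a bar at the median of the other tested genes of that chromosome. All are processed ratios. Chromosome 11 holds the lowest bar, at -0.51, and 9 of its 11 members lie below it. Chromosome 1 holds the highest, at 0.25, and 4 of its 5 members lie below it.

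Away from chromosome 11, a pair of small-subunit symbols was as low as its members. Mrps31, a mitochondria-specific protein on chromosome 8, gave 22329 and 25646 in WT and 14037 and 14774 in overexpression (-0.73 ± 0.09, adjusted p = 0.0021). Mrps30 on chromosome 13, which carries a small-subunit symbol but sits in the large subunit, gave 18108 and 21519 in WT and 11939 and 12368 in overexpression (-0.70 ± 0.14, adjusted p = 0.0030). The channels did not overlap in either. The surroundings of the pair differed. Mrps31 lay between Slc25a15 (-0.58) and Smim19 (-0.54), which both fell, on a chromosome whose other genes had a median of -0.25 and fell in 47.0% of cases. Beside Mrps30, Emb fell (-0.29) and Fgf10, a signalling ligand, rose (1.89). Mrpl34, the other tested member of chromosome 8, rose instead, as given below.

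The other 9 members that fell, named here after their values were seen, were smaller changes. They were Mrpl14, Mrps10, Mrps34 and Mrpl2 on chromosome 17, Mrpl47, Mrpl24 and Mrpl9 on chromosome 3, Mrpl35 on chromosome 6 and Mrpl48 on chromosome 7. Mrpl14 lies on the face that meets the small subunit, and Mrpl2 supports the peptidyl transferase centre. Their log2 ratios ran from -0.42 ± 0.07 in Mrpl14 (adjusted p = 0.013) to -0.27 ± 0.04 in Mrpl48 (adjusted p = 0.0497). Under median centring of the raw signals only Mrpl35 of the 9 was still called lower (-0.36, limma adjusted p = 0.0051). Mrpl2 (0.55, limma adjusted p = 0.00033), Mrps10 (0.35, limma adjusted p = 0.0066) and Mrps34 (0.24, limma adjusted p = 0.039) were then called higher. Mrpl14 (0.08) and Mrpl48 (0.13) turned positive without a call, so the direction of these 5 depends on the scaling. Chromosome 17 held 8 tested members with a median of -0.30, while its other genes had a median of -0.04. Chromosome 3 held 5 with a median of -0.33, while its other genes had a median of -0.06. These medians are those of the processed ratios. Under median centring every tested member of chromosome 17 lay above 0, from 0.08 in Mrpl14 to 0.55 in Mrps18a. Those of chromosome 3 then ran from -0.17 in Mrpl9 to 0.88 in Mrps21. The other genes of these chromosomes were not as low as those of chromosome 11, and the differences between members and the other genes of a chromosome were not tested.

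The 6 members that rose came 3 from each subunit and lay on 6 chromosomes. The upstream sequences of 3 of them are shown in the same way, as the counterpart of those that fell. Capitals mark the NRF1 letters in Mrps21 (chr3:95871515-95871764, minus strand), the letters of YY1, AAGATGGC, on the opposite strand in Mrps11 (chr7:78782881-78783130, plus strand), and the ETS letters in Mrpl34 (chr8:71464676-71464925, plus strand).
Mrps21: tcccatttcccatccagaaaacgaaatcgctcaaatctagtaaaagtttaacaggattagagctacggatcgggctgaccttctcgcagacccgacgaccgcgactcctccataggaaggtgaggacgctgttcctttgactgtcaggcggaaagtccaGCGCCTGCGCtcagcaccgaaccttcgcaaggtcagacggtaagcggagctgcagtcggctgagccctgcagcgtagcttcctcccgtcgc
Mrps11: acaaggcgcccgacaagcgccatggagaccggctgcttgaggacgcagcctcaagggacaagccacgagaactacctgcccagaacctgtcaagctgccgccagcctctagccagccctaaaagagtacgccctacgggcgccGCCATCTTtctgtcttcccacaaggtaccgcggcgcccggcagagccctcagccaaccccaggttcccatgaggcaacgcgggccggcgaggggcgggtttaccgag
Mrpl34: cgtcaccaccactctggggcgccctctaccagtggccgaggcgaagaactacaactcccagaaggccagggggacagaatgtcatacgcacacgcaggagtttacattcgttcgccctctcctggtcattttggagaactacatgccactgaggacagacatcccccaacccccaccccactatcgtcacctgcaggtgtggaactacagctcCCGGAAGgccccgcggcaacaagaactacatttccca
The capitals begin at -91 in Mrps21, at -107 in Mrps11 and at -37 in Mrpl34, so NRF1 and ETS letters were present upstream of genes that fell and of genes that rose. These 3 were picked because they carry such letters. Of the other 3 that rose, Mrpl20 held only CACGTG, at -33. No match was recorded for Mrpl15 and Mrps2, either because they held none or because their promoter was not among those searched.

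Mrps21, a homologue of a bacterial small subunit protein, gave 12279 and 12609 in WT and 17009 and 18727 in overexpression, a log2 ratio of 0.52 ± 0.07 (adjusted p = 0.0064). Mrps11, of the small subunit platform, gave 16348 and 17000 in WT and 21129 and 24869 in overexpression (0.46 ± 0.13, adjusted p = 0.012). Mrpl20, which binds ribosomal RNA in the large subunit, gave 11031 and 11713 in WT and 14848 and 15738 in overexpression (0.43 ± 0.00, adjusted p = 0.011). Both overexpression signals lay above both WT signals in these 3. Mrpl15 on chromosome 1, another large subunit protein with a bacterial homologue, gave 23760 and 23803 in WT and 30102 and 31692 in overexpression (0.38 ± 0.05, adjusted p = 0.018). Mrps2, of the small subunit, gave 9485 and 11596 in WT and 12121 and 13528 in overexpression (0.29 ± 0.09, adjusted p = 0.047). Mrpl34, of the large subunit, gave 20094 and 21409 in WT and 24262 and 26239 in overexpression (0.28 ± 0.02, adjusted p = 0.044). The last 3 did not overlap either, and Mrps2 came closest, with the higher WT signal just under the lower overexpression signal. The second probe of Mrps2 read 0.02, and its call was lost with the mean over probes (0.16, limma adjusted p = 0.20) and with no filter on dim probes (limma adjusted p = 0.075). Mrpl34 too was lost with no filter (limma adjusted p = 0.071). The next 4 by mean, Mrps15 (0.28), Mrpl53 (0.28), Mrpl51 (0.27) and Mrpl18 (0.27), had limma adjusted p-values from 0.0502 to 0.059 and were not called.

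Genes next to those that rose did not move with them in each case. Mrpl20 lay between Vwa1, which fell (-0.75), and Ccnl2 (-0.09, adjusted p = 0.44). Mrps21 lay between Prpf3 (0.16, adjusted p = 0.17) and Ciart, which rose (0.63, limma adjusted p = 0.0033). Mrpl15 lay between Sox17 (3.07) and Lypla1 (0.29), which both rose (limma adjusted p = 3.9e-05 and 0.046). Beside Mrps2, 1700007K13Rik rose (0.55, limma adjusted p = 0.0049), and Gbgt1 read 0.56 (limma adjusted p = 0.073). Neither Abhd8 (-0.09) nor Dda1 (-0.05), the neighbours of Mrpl34, was called. Det1, on one side of Mrps11, read -0.26 (limma adjusted p = 0.053). Mrps11 and Mrpl46 stand head to head, 42 bases apart at their starts, and are both members. Mrps11 rose, while Mrpl46 had a ratio of -0.16 ± 0.09 (adjusted p = 0.21), and its ratio was 0.03 under median centring, so the difference in sign within the pair holds on the processed ratios and not there. In all, 26 members had a start within 1000 bases of an oppositely directed gene. Both genes were tested for 23 of them, and 13 had the same sign, 10 of 20 away from chromosome 11. The pair of Mrps11 and Mrpl46, of opposite sign, is counted under both its members. Both were called in the same direction for 3, Mrpl2 with Klc4, Mrpl27 with Eme1 and Mrps7 with Gga3, and in opposite directions for 0. Of all tested genes 51.1% were called, and head-to-head pairs of other genes were not counted. The pairs of Mrpl27 and Mrps7 lie on chromosome 11, where 66.7% of the other genes fell. With median centring Mrpl2 was called higher (0.55, limma adjusted p = 0.00033). Mrpl49 (-0.02, adjusted p = 0.87) faces Fau, which encodes a cytosolic ribosomal protein fused to a ubiquitin-like one and rose (0.48, limma adjusted p = 0.0084).

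On chromosome 1 the other tested genes were high. They had a median of 0.25, and 44.5% of them rose. Of the 5 members there, only Mrpl15 was called on the processed ratios. Loess also called Mrpl30 higher (0.34), and median centring called Mrpl15, Mrpl30 (0.92), Mrpl44 (0.47) and Mrps9 (0.29). On the processed ratios Mrpl30 read 0.23 ± 0.05 (adjusted p = 0.084), Mrps14 0.10 ± 0.17 (adjusted p = 0.43), Mrpl44 0.05 ± 0.15 (adjusted p = 0.70) and Mrps9 0.01 ± 0.14 (adjusted p = 0.92). Mrps14 had 2 probes, with ratios of 0.10 and 0.60, the widest gap between probes of a member. Tested members lay on 17 chromosomes in all, with none on chromosomes 12, 18 and X.

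The large and the small subunit did not differ by much. In the large subunit 3 of 48 genes rose and 15 fell, with a median of -0.14, and in the small subunit 3 of 29 rose and 7 fell, with a median of -0.08. The small subunit's median minus the large one's was 0.07 on replicate 1 and 0.04 on replicate 2. Away from chromosome 11 the medians were -0.060 for 40 large subunit genes, of which 3 rose and 7 fell, and -0.065 for 26 small subunit genes, of which 3 rose and 4 fell. Chromosome 11 held 8 of the 48 and 3 of the 29. Counting Mrps18a and Mrps30 in the large subunit, where their proteins sit, and leaving out Mrps36, now known as a part of the oxoglutarate dehydrogenase complex, gave -0.14 for 50 genes and -0.10 for 26. The Mrps18 genes are paralogues whose proteins take separate places in the ribosome, and none of the 3 was called. Their log2 ratios were -0.06 ± 0.10 for Mrps18a (adjusted p = 0.62), -0.32 ± 0.20 for Mrps18b (adjusted p = 0.053) and -0.20 ± 0.07 for Mrps18c (adjusted p = 0.13). The second probe of Mrps18b read 0.06. Mrps36 had a ratio of -0.05 ± 0.00 (adjusted p = 0.69).

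The direction of the members as a group depended on how the arrays were scaled, and the gap between the chromosome 11 members and the other members changed little. With normexp background correction and median centring of the raw signals, the members' median was 0.25 beside 0.01 for all genes, 41 members rose and 8 fell, where 60.4% of all genes were called, 30.4% up and 30.0% down. Of the 22 that fell on the processed ratios, 15 kept a value below 0, and all 6 that rose kept a value above 0. Mrps31 read -0.22 there and was no longer called (limma adjusted p = 0.063). On chromosome 11 the median became -0.25 and 6 of the 11 fell; Mrpl58 (0.0089) and Mrpl12 (0.12) turned positive, with limma adjusted p-values of 0.94 and 0.27, and Mrpl55 (-0.21), Mrpl22 (-0.16) and Mrps23 (-0.09) were no longer called. With normexp and loess, 12 members rose and 28 fell, where 56.6% of all genes were called, 22.1% up and 34.5% down, and 27 of the 28 calls were kept. The call that was lost was Mrpl2, and among the 13 gained were Mrpl51, Mrpl30, Mrpl33, Mrpl41 and Mrps18c. Centring the processed ratios on each array's median gene gave 11 that rose and 15 that fell (50.4% of all genes called), and an intensity trend in limma's prior gave 11 and 30 (57.4%). The chromosome 11 median minus that of the other members was -0.61 on the processed ratios, -0.59 with loess and -0.59 with median centring, and in each of the 3 all 11 members lay below the median of the other members.

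**Figure D4:**
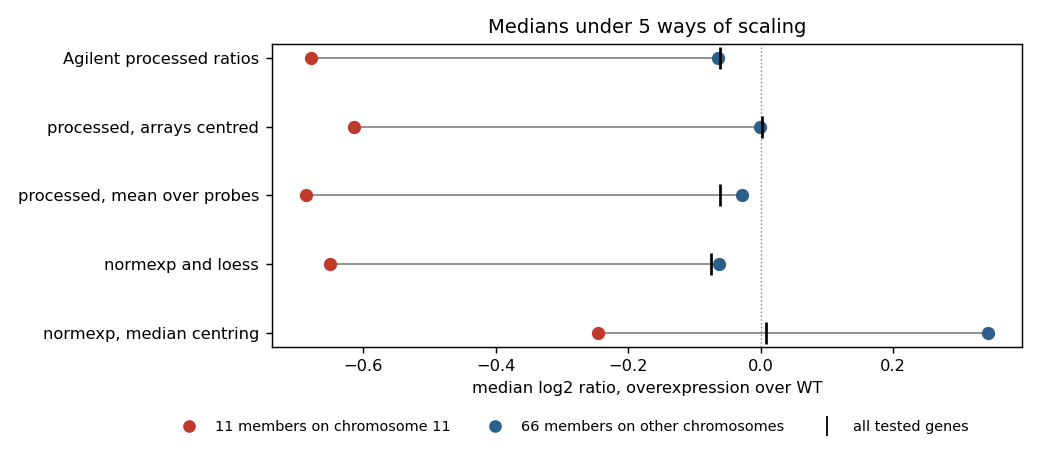
The median log2 ratio (x axis) of the 11 members on chromosome 11 (red) and of the 66 on other chromosomes (blue) is drawn under 5 ways of scaling (y axis), with a tick at the median of all tested genes. The difference between the dots stays between -0.66 and -0.59 while median centring moves both to the right, the 66 to 0.34.

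Other genes of mitochondrial translation, taken from lists made by function, fell more often than they rose on the processed ratios; with median centring the 4 lists below had 2 that rose in each and 5, 7, 4 and 2 that fell. Members and lists are compared by counts and medians only, beside 21.2% higher and 29.9% lower among all tested genes. Of 18 translation factors, 0 rose and 7 fell, with a median of -0.23. They included Taco1, an activator of Cox1 translation encoded on chromosome 11 (-0.92 ± 0.10), Oxa1l, the inner membrane insertase (-0.52 ± 0.11), and Mtfmt, which formylates the initiator transfer RNA (-0.50 ± 0.09), with limma adjusted p-values from 0.0011 to 0.0079. At an unadjusted limma p under 0.05 the list had 0 higher and 9 lower. Of 25 genes of ribosome assembly and ribosomal RNA modification, 9 fell and 1 rose, with a median of -0.25. The helicase Dhx30 (-0.81 ± 0.07), the RNA methyltransferase Mrm1 on chromosome 11 (-0.65 ± 0.22) and the GTPase Mtg1 (-0.60 ± 0.09) fell. With median centring Oxa1l (0.03) and Dhx30 (-0.05) were no longer called, with limma adjusted p-values of 0.80 and 0.69. Fastkd2, an RNA-binding assembly factor on chromosome 1, was the one that rose (0.57 ± 0.08), from 54.6 and 58.1 in WT to 77.7 and 89.4 in overexpression; with loess it was 0.21 and no longer called (limma adjusted p = 0.073). Without chromosome 11 the medians were -0.19 for 16 translation factors and -0.12 for 22 assembly genes.

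Of 20 mitochondrial aminoacyl-tRNA synthetases and amidotransferase subunits, 1 rose and 4 fell, with a median of -0.14. Wars2, which charges the tryptophan transfer RNA, rose (0.70 ± 0.10), and Cars2 for cysteine (-0.67 ± 0.10) and Rars2 for arginine (-0.39 ± 0.03) fell. Of 12 genes of mitochondrial transcription and transfer RNA processing, 0 rose and 4 fell, with a median of -0.13; at an unadjusted limma p under 0.05 these were 1 and 5. Tefm, the transcription elongation factor, encoded on chromosome 11, gave 7081 and 6866 in WT and 3213 and 3695 in overexpression (-1.02 ± 0.17, adjusted p = 0.0011). It was lower than any mitochondrial ribosomal protein gene. Gtpbp3 (-0.45 ± 0.04), which modifies transfer RNAs, and Polrmt (-0.30 ± 0.03), the mitochondrial RNA polymerase, also fell. The 5 tested proteins of the mitochondrial ribosome with other names, among them Dap3 (-0.20, adjusted p = 0.13), had 0 limma calls in either direction, also 0 at an unadjusted p under 0.05, and a median of -0.03, while with median centring all 5 were called higher, with a median of 0.36.

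Among 10 tested regulators of mitochondrial biogenesis 2 rose and 2 fell. Myc gave 3872 and 3502 in WT and 6210 and 7967 in overexpression (0.93 ± 0.36, adjusted p = 0.0036), and the coactivator Ppargc1b rose as well (0.49 ± 0.08, adjusted p = 0.0081). Gabpa, the DNA-binding subunit of GABP, fell (-0.28 ± 0.08, adjusted p = 0.048). The other gene that fell, Ppargc1a, was not well above background in overexpression on either array, so no ratio is given.

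The other large protein families of translation and respiration had higher medians. Of 78 cytosolic ribosomal protein genes 28 rose and 9 fell, with a median of 0.20, and of the 9 that fell 6 lay on chromosome 11. The calls became 45 higher and 5 lower with loess and 70 higher and 1 lower with median centring. Rpl37a (1.01 ± 0.15) and Rpl41 (1.00 ± 0.36) rose, and Rps27a, encoded on chromosome 11 as a fusion with ubiquitin, fell (-0.90 ± 0.15). A single probe may not tell such a gene from its near-identical copies. Of 76 nuclear-encoded respiratory chain subunits 10 rose and 14 fell, with a median of 0.01, and 1 of the 4 on chromosome 11 fell. Away from chromosome 11, 13 of 72 respiratory chain genes fell, beside 11 of the 66 mitochondrial ribosomal protein genes. Cox6b1 (0.81 ± 0.16) and Ndufa10 (0.58 ± 0.28) rose, and Atp5a1 (-0.54 ± 0.10) fell, the last not called with median centring (-0.04, limma adjusted p = 0.71). The respiratory chain calls became 18 higher and 11 lower with loess and 58 higher and 1 lower with median centring. With median centring the medians were 0.87 for the cytosolic ribosomal proteins, 0.48 for the respiratory chain and 0.25 for the mitochondrial ribosomal proteins, so the 3 families kept their order while all moved up.

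**Figure D5:**
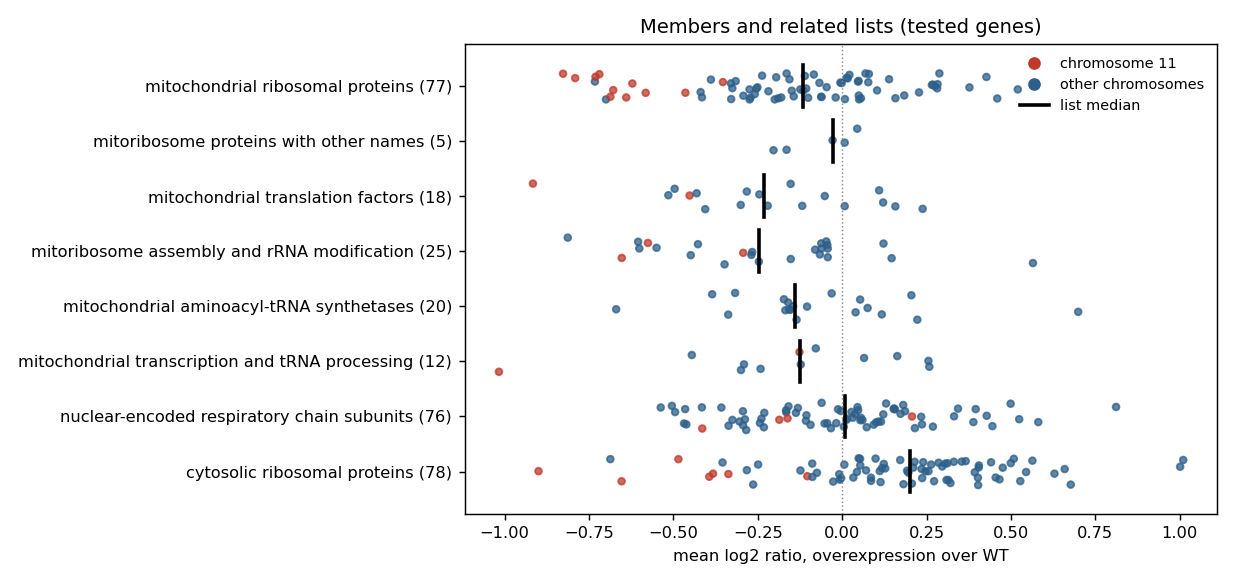
Each dot is the mean log2 ratio (x axis) of a tested gene, by list (y axis, number of genes in brackets), with chromosome 11 in red, other chromosomes in blue and a bar at the list's median. The bars run from -0.25 for ribosome assembly and RNA modification to 0.20 for the cytosolic ribosomal proteins, and the mitochondrial ribosomal proteins lie at -0.12.

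The promoters of the members shared sequence features that the choice by symbol did not use. RefSeq promoters of 300 bases, 250 before the start and 50 after it, were found for 69 of the 78 genes, 75 promoters in all, and both strands were searched. CCGGAAG stood in 34.7% of them, against 8.86% of 32851 promoters of all genes and 11.6% of those of protein-coding genes. The NRF1 letters stood in 17.3%, against 4.6% and 6.38%, and AAGATGGC in 16%, against 2.75% and 3.05%. At least 1 of the 3 was present in 57.3%, against 14.7% and 18.9%. CACGTG, the E-box that MYC and other factors bind, stood in 9.33%, against 7.15% and 7.84%. Promoters of cytosolic ribosomal proteins held the ETS letters in 37.1% and the NRF1 letters in 5.71%, and those of the respiratory chain in 25% and 26.5%. The YY1 letters stood in 11.4% of the former and 14.7% of the latter, near the share of the members, and the E-box in 11.4% and 10.3%. The last letters of the ETS motif, AAG, are also the first of the YY1 motif, so the pair can overlap, and a promoter can hold more than 1 motif.

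The letters were found upstream of members on chromosome 11 and elsewhere. Among the 10 chromosome 11 promoters in the table, 4 held the ETS letters, 2 the NRF1 letters, 2 the YY1 letters and 0 the E-box. The 42 tested members with ETS, NRF1 or YY1 letters had a median log2 ratio of -0.08, and the 26 without them one of -0.20. Away from chromosome 11 the medians were -0.01 for 34 members and -0.17 for 24. These medians were taken on the processed ratios only, and the differences between members with and without the letters were not tested. The genes of these factors gave log2 ratios of 0.27 ± 0.13 for Nrf1 (adjusted p = 0.061), 0.04 ± 0.04 for Yy1 (adjusted p = 0.72) and, for the GABP subunit Gabpa, the decrease given above.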

How the data were processed

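Total RNA of both channels was amplified, labelled and hybridised to Agilent 2-colour arrays, per the labels' protocols. The deposited scanner files, written by Feature Extraction 11.5.1.1 per the file headers, hold processed signals as intensity, their log10 ratio, and well-above-background marks coded as other values. The deposited table of log2 ratios equalled the scanner ratios with the sign turned (correlation -1.000 on both arrays, column medians -0.0073 and 0.062). That settles its scale and direction and leaves no further centring in it.

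Here log2 of the Cy5 over the Cy3 processed signal was taken, outlier and control spots were left out, and copies of a probe were averaged. Probes were named through their accession in the RefSeq table of GRCm38.p6: of 55681 probes, 26762 had 1 symbol, 0 several and 28919 none. The brightest probe stood for its gene, and the gene was tested if the probe passed Agilent's well-above-background mark on both arrays in at least 1 channel, the same one each time. Limma 3.58.1 (R 4.3.3; lmFit, eBayes, intercept only, 1 residual degree of freedom, 4.58 prior degrees of freedom) gave two-sided p-values with Benjamini-Hochberg adjustment. The fit was also run on simulated ratios with few changed genes and independent errors. That setting differs from these arrays, so it cannot vouch for the calls made here. The median standard error was 0.09 on the log2 scale, and 2 arrays limit the precision.

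The alternatives, in which raw median signals were corrected by normexp with an offset of 50, are in the closing section. The rule for named genes took the 10 highest and 10 lowest members, all on chromosomes 1, 8 and 11, the Mrps18 genes, Mrps30, Mrps36, members whose probes disagreed in sign by over 0.5 (0 found), up to 6 members whose call differed with loess, up to 3 called genes of each other list, and Hdac6. Members and lists were chosen with earlier results of these data known. Ict1, listed among the proteins with other names, is Mrpl58 and was counted as a member.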

Additional observations from a re-analysis of the deposited data

How the results depend on the processing

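With raw signals, normexp and median centring, the medians of the members (0.25), the large (0.24) and small subunit (0.25) and the members off chromosome 11 (0.34) changed sign. So did Mrpl58 (0.0089), Mrpl12 (0.12), Mrpl41 (0.15), Mrps18a (0.55), Mrps18b (0.17), Mrps18c (0.09) and Mrps36 (0.22). Among the other called members, Mrpl14 (0.08), Mrpl48 (0.13), Mrps10 (0.35), Mrps34 (0.24) and Mrpl2 (0.55) changed sign too, the last 3 to calls of higher. Further members that were not called changed sign as well. Of the 77, 27 had a value above 0 on the processed ratios and 58 with median centring. The chromosome 11 median was then -0.25, with 6 of the 11 lower. In the same setting 41 members were higher, 2 of them at least 2-fold, and 8 lower, 2 of those off chromosome 11. With loess, 12 members were higher, 17 off chromosome 11 were lower, the small subunit median was -0.088, and 288 genes were at least 2-fold higher and 454 lower. With each array centred on its median gene, 11 members were higher and 5 off chromosome 11 lower. The medians were then -0.051 for the members, -0.072 for the large and -0.020 for the small subunit, -0.61 on chromosome 11 and -0.0010 off it. Higher members numbered 10 with the stricter filter and 11 with an intensity trend in the prior, which gave 19 lower off chromosome 11. Against 1.5-fold (treat), 662 genes were higher and 937 lower, and 0 members were called in either direction, on chromosome 11 or off it. With the mean over probes, the medians were -0.11 for the large and -0.062 for the small subunit and -0.029 off chromosome 11. Leaving out Mrps18a, Mrps30 and Mrps36 moved the small subunit median to -0.10. Leaving out the chromosome 11 members, an alternative chosen after seeing the data, gave -0.065 for the members, -0.060 for the large and -0.065 for the small subunit. The causes of these differences were not tested. Leaving out 1 array gives values with no test: 566 to 893 genes at least 2-fold higher and 853 to 1066 lower, medians of -0.090 to -0.085 for the small subunit, -0.70 to -0.61 on chromosome 11 and -0.084 to -0.059 off it. Each array is a ratio of WT and overexpression RNA hybridised together, so the fit on the ratios already pairs the channels. No other pairing was possible in a single group. With no dye swap and 1 residual degree of freedom, the limit of what was called lay near -0.32 for Mrps18b, which was not called, and -0.27 for Mrpl48, which was.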
